A study of Mus musculus with 9 samples.

Results

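The nucleotides described here are the cytosines (C) that have a guanine (G) directly before and directly after them in mouse 5′ untranslated regions, the leaders of messenger RNAs upstream of the main start codon. They were found from the base and position given on each row of the table: a row counted when its base was C and the rows at the positions just before and just after it in the same amplicon both existed and were G. No measured value entered the choice. The rule found 702 rows among 32967, of which 9347 were C. These 702 readings covered 598 distinct positions in 126 of 161 amplicons and 60 of 69 transcripts. Of the positions, 104 were read in 2 overlapping amplicons. Such a pair of readings shares the RNA of each sample and is not a pair of replicates. The 1723 C rows with A or U on both sides were the comparison class.

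All samples came from E14TG2a cells, a line of mouse embryonic stem cells, and no genotype differed between groups. In the untreated group the cells were exposed in their medium to 1.6% dimethyl sulfate (DMS) for 6 min at 37 °C, with 250 mM bicine as buffer. In the ATP depleted group the cells first spent 10 min in glucose-free medium with 10 mM 2-deoxy-D-glucose and 10 mM sodium azide, which stayed in the later solutions, and then received the same DMS step. In the in vitro refolded group purified RNA was refolded outside the cell, and its DMS conditions were not given in the sources used here. Each group held 3 samples, which the labels call independent, and the total was 9. The table holds no expression values, so the identity of the cells was not checked against marker genes, and no sample without DMS was analysed here. Tests therefore measure the spread between these samples of 1 cell line.

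DMS methylates the Watson-Crick face of unpaired A and C, and reverse transcription past a methylated base leaves a mutation in the cDNA. A C that is paired with G, or whose face is shielded by a protein or a tertiary contact, is modified less. Reactivity is thus read as accessibility. Cells are compared with refolded RNA to set what the sequence adopts in the cell beside what it folds into by itself. Here the DMS conditions of the refolded group were not given and its counts were fewer. A difference in folding therefore cannot be told apart from a difference in DMS conditions or depth. ATP depletion limits energy-dependent remodelling of RNA by helicases and of translating ribosomes. Leaders rich in G and C can form stable stems, and a C between G sits in a setting where its neighbours are themselves able to pair with C or U.

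The reactivity given below is in counts per 1000000 within an amplicon (CPM): the mutation counts at a position per 1000000 of a library size that the deposited values imply. That size belongs to 1 amplicon in 1 sample and did not always equal the summed counts. At Eif5 position 209, in vitro replicate 2 had 2983 counts at 42003 CPM, while each library of that amplicon held 85348 counts or more. The reason was not determined. CPM is thus a relative level and not an exact share. A rise at one position can lower the others, and levels of different amplicons are comparable only as relative levels. The files hold between 5743965 and 12616275 counts per sample. A library, meaning 1 amplicon in 1 sample, held 96 to 624295 counts, with a median of 40815. The 702 readings had a median of 173 counts in untreated samples, 182 after ATP depletion and 63 in vitro. Readings with 0 counts numbered 2, 0 and 0 in the untreated replicates, 1, 0 and 4 after ATP depletion, and 34, 56 and 25 in vitro. Low readings in vitro thus rest on the fewest counts, and 0 counts means not detected at that depth. Of the 702 readings, 464 lay in 89 amplicons whose smallest library held 5000 counts or more.

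The sequences whose reactivity differed most between refolded RNA and cells are shown first, since the results on single nucleotides turn on them. Each is the RefSeq transcript name with the position of the C, then up to 21 bases around it, 5′ to 3′ and on the transcript strand, with T for U and the G, C and G in capitals. A shorter run ends where the table's rows end. Positions count from 1 at the transcript start, which was checked against the RefSeq promoter table (GRCm38.p6): 11 of 16 leaders compared were found there and 11 matched. All sets are limited to amplicons whose smallest library held 5000 counts or more, a library being 1 amplicon in 1 sample. The first and second sets are also limited to positions called against untreated cells whose in vitro and untreated samples did not overlap. Lack of overlap with untreated samples at these positions was thus set by the choice. The first set holds 7 of the 8 largest rises in vitro.
Cnot3 position 282: tcgcctgtcGCGatacgctcc
Eif5 position 209: tgctcggcgGCGgcacctgcc
Sertad2 position 73: ccggGCGtccactccg
Ube4b position 540: gcggtgcgaGCGgccgaagcc
Taok2 position 522: tgcagccggGCGtcctcgggg
Ctcf position 105: gcgggcgcGCGgagccggcc
Ptp4a1 position 28: gctGCGgccggctcg

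The second set holds 7 of the 8 largest falls in vitro.
Chtop position 288: ccgggaggaGCGctggcgtcc
Brd2 position 1695: agctgagcgGCGgcggttccc
Eed position 249: ggagggcgcGCGcgtgcgcgc
Eed position 257: cgcgcgtgcGCGccccttttt
Eed position 322: gcgcgatttGCGacagtgggg
E2f3 position 282: ggttcggaaGCGccgggaggg
Ctcf position 145: agcggtggaGCGgcggcggag

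The third set holds the 5 positions with the highest mean reactivity over the 9 samples.
Brd2 position 666: ggggagatgGCGcctacacgc
Brd2 position 1650: ctgggcccgGCGgtgagggga
Eif5 position 295: cagtcccggGCGagccgcgtt
Cnot3 position 315: ccagctcctGCGcggccat
Brd2 position 1284: atggaggcgGCGgctctctga

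The fourth set holds 4 of the 5 with the lowest mean.
Rbm10 position 563: agcgccgttGCGggtcgtggg
Rbm10 position 555: agaaggtgaGCGccgttgcgg
Rnf10 position 155: ggccggccgGCGgggctcgcg
Acvr2a position 340: acgcgagagGCGagcggagct

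C between G was less reactive than C between A or U in every sample. The median over the 702 readings was 4946, 4973 and 4953 CPM in untreated replicates 1, 2 and 3, with a mean of 4957 ± 13.9 CPM (SD, n = 3). After ATP depletion it was 4670, 4703 and 4652 CPM, with a mean of 4675 ± 25.9 CPM (SD, n = 3). In vitro it was 4298, 4066 and 4076 CPM, with a mean of 4147 ± 131 CPM (SD, n = 3). The values of the 3 groups did not overlap, with untreated highest and in vitro lowest.

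For C between A or U the corresponding medians were 6321 ± 102, 6126 ± 298 and 5799 ± 129 CPM (SD, n = 3 each). The lowest single sample of that class, 5658 CPM, lay above the highest of C between G, 4973 CPM. C between G thus reached 78.4% of the comparison class in untreated cells, 76.4% after ATP depletion and 71.5% in refolded RNA. On the log2 scale the difference was −0.35 ± 0.026, −0.39 ± 0.079 and −0.48 ± 0.031 (SD, n = 3 each). These are descriptions of the class, with no test.

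**Figure D1:**
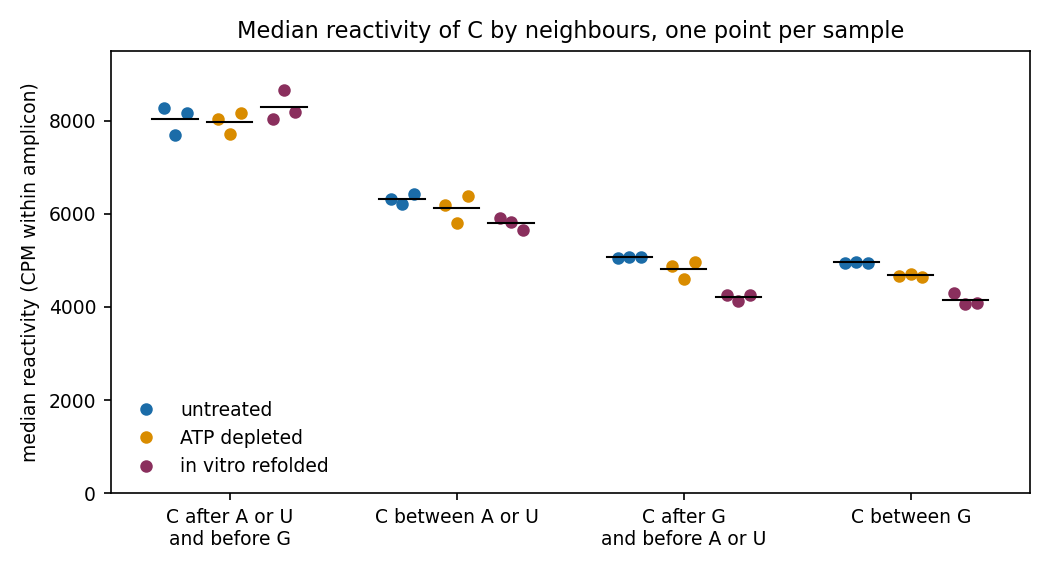
Median reactivity (CPM within amplicon, vertical axis) of C between G, C between A or U and the classes with a G on one side, with 1 point per sample in each of the 3 groups and a line at their mean. The points for C between G lie between 4066 and 4973 CPM and those for C between A or U between 5658 and 6423 CPM.

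The separation of all 3 groups on these medians was lost in deeper amplicons. The order of the group means and the difference between the classes remained there. Among those 464 readings, the medians of C between G were 5078 ± 109, 4943 ± 98 and 4793 ± 166 CPM (SD, n = 3). Untreated samples, from 4954 to 5159 CPM, stayed above in vitro ones, from 4602 to 4893 CPM. ATP depleted samples, from 4842 to 5038 CPM, overlapped both. Among the 243 readings in 55 amplicons whose smallest library held 20000 or more, they were 4680 ± 150, 4644 ± 43.1 and 4542 ± 302 CPM, and the 3 groups overlapped. At that depth the medians of C between A or U were 6466 ± 152, 6329 ± 364 and 6081 ± 202 CPM. Means in place of medians gave a smaller difference: 6342 against 6966 CPM in untreated cells, 6219 against 6667 CPM after ATP depletion, and 7034 against 7006 CPM in vitro, where the direction was lost.

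The change of the relative level between groups was small and not stable. It was −0.13 (log2) for in vitro against untreated, and the 3 values of each group did not overlap. In amplicons whose smallest library held 5000 counts it was 0.019, and in amplicons below 60% GC it was 0.25. For ATP depleted against untreated it was −0.038, with overlapping samples. No change of the class between groups was therefore read from these values.

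GC content and position moved with the class. The 18 bases around a C between G had a median GC content of 72.2%, against 50% around C between A or U, and the amplicons held 68.7% against 51.5%. The median position was 316 against 410 bases from the transcript start. Within amplicons below 60% GC the log2 difference in untreated cells was −0.33 ± 0.10, over 139 and 1213 readings, and within those at 60% or more it was −0.45 ± 0.070, over 563 and 510 readings. In vitro the corresponding values were −0.081 ± 0.046 and −0.56 ± 0.053. By the 18 bases around the C, the difference was −0.69 below 50%, −0.29 from 50 to 67% and −0.30 above 67% in untreated cells. The difference was thus negative in every range and group, and its size moved with GC content; the part that composition has in it was not tested.

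Comparing both classes within the same amplicon removes differences between amplicons. In the 77 amplicons with at least 3 readings of each class, the median log2 difference was −0.54 ± 0.094 in untreated cells, −0.59 ± 0.095 after ATP depletion and −0.59 ± 0.20 in vitro (SD, n = 3). C between G was lower in every one of the 9 samples in 28 amplicons and higher in every one in 6. Some of these amplicons overlap, such as those of Hipk3 at 351 to 601 and 352 to 602. The counts are thus not of independent units. The lowest, by the mean over 9 samples, were an amplicon of Mapk6, an atypical MAP kinase, at positions 3 to 253, with −2.23 and a highest sample of 0.036, and one of Brd2, a bromodomain protein that reads acetylated histones, at 1023 to 1273, with −2.15. The smallest library of the Mapk6 leader held 1896 counts. In the Brd2 amplicon the untreated medians were 2183 CPM over 5 readings and 6595 CPM over 10. A pair of overlapping amplicons of Tle4, a Groucho-family corepressor, was also low: −1.83 at 578 to 828, with 15 readings, and −1.74 at 479 to 729, with 17.

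The amplicon furthest the other way belonged to Ints6, a subunit of the Integrator complex that cleaves nascent RNA. Over its positions 164 to 414 the difference was 3.47 on the log2 scale, from 7 readings of C between G and 5 of the comparison class. The untreated medians were 12958 and 1637 CPM. The 7 readings fell into a high and a low set: positions 226, 228, 240, 353 and 367 had untreated means from 11352 to 16951 CPM, and positions 259 and 375 had 1498 ± 659 and 1797 ± 1069 CPM (SD, n = 3). The next highest were Rnf10, a RING finger protein, at 15 to 265 with 2.16 and Srgap2, a regulator of neuronal membrane shape, at 196 to 446 with 1.10. These amplicons hold few readings of one or both classes, and the Rnf10 one had a library of only 2484 counts. Overlapping amplicons of Rnf10 and Srgap2 went the other way in all 9 samples. Their means were −0.40 for Rnf10 at 107 to 357, and −1.315 and −0.70 for Srgap2 at 68 to 318 and 388 to 638.

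C between G had about the level of C with G only before it, with A and U after it pooled. It had a lower level than C with G only after it. Over all C, untreated medians by the base before were 7952 CPM after A, 5342 CPM after U, 4714 CPM after G and 3526 CPM after C. By the base after they were 5877 CPM before A, 5396 CPM before G, 4423 CPM before U and 4129 CPM before C. A C with G before it and A or U after it had medians of 5062 ± 17.9, 4818 ± 189 and 4209 ± 80.8 CPM (SD, n = 3), so that C between G reached 97.9%, 97.1% and 98.5% of it. A C with A or U before it and G after it had 8040 ± 313, 7972 ± 235 and 8298 ± 326 CPM, and C between G reached 61.7%, 58.7% and 50% of it.

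Values within amplicons had the same order. Against C with G only before, the median log2 difference over 84 amplicons was −0.058 ± 0.033, −0.094 ± 0.10 and −0.013 ± 0.014, with 15 amplicons lower in all 9 samples and 13 higher. Against C with G only after, it was −0.72 ± 0.028, −0.74 ± 0.078 and −0.93 ± 0.11 over 66 amplicons, with 37 lower in all 9 samples and 3 higher.

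Among the 16 combinations of neighbours, C between G took place 8 from the bottom in untreated cells, 8 after ATP depletion and 9 in vitro. The lowest was C with C before and U after, at 2843 ± 93.5 CPM, and the highest C with A before and G after, at 9555 ± 258 CPM in untreated cells. C between U, with untreated samples from 4922 to 5205 CPM, enclosed the range of C between G, 4946 to 4973 CPM, so the order of these neighbours was not resolved. C with G before and U after, from 4367 to 4573 CPM, lay below it without overlap. C with G before and A after, from 5922 to 6011 CPM, lay above C between G without overlap. The near-equal level of C with G only before was thus that of a lower and a higher set pooled. C between G was close to the median of all C, at 103%, 102% and 101% of it in the 3 groups. All A had 8589, 8448 and 9298 CPM, all U 3897, 4270 and 3581 CPM and all G 837, 867 and 764 CPM. The level of U was thus nearer to that of C than to that of G.

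**Figure D2:**
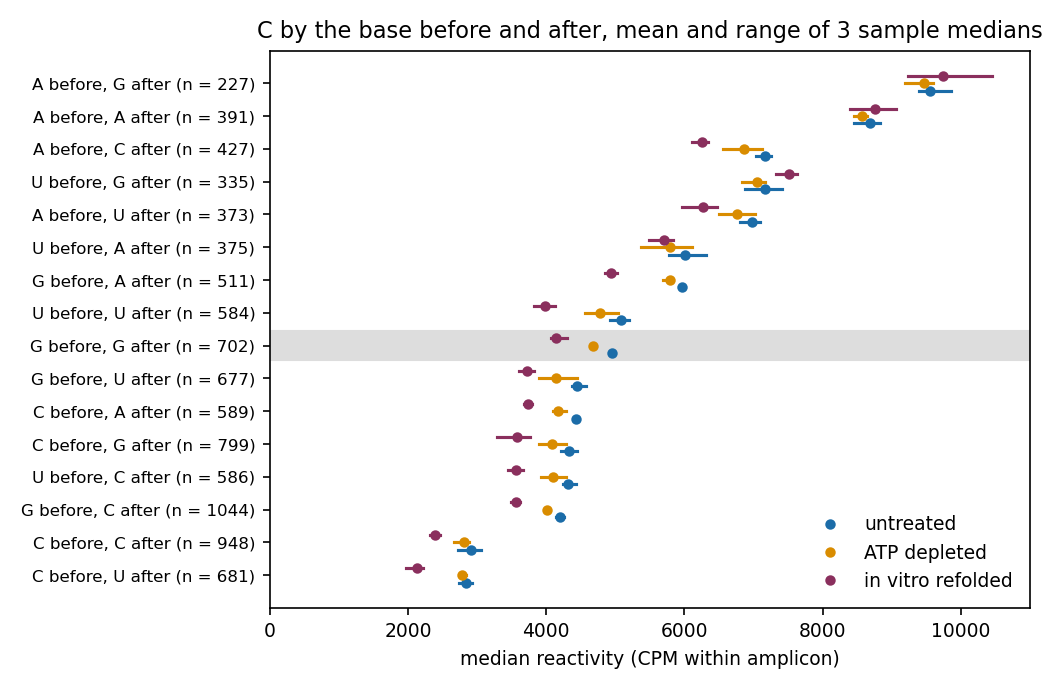
Median reactivity (CPM within amplicon, horizontal axis) of C for each of the 16 combinations of the base before and after, as the mean and range of 3 sample medians per group. C between G has 4957 CPM in untreated samples and lies in the middle of the order, between 2843 CPM for C before and U after and 9555 CPM for A before and G after.

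The G neighbours themselves had the low level of G in general, which DMS is not expected to mark at the Watson-Crick face. The G before the C had medians of 675 ± 34.3, 731 ± 21.7 and 608 ± 58.0 CPM (SD, n = 3). The G after the C had 1017 ± 17.6, 1012 ± 30.0 and 962 ± 23.3 CPM. Other G had 839 ± 30.4, 869 ± 40.9 and 761 ± 29.7 CPM. The G after was above other G, and the G before below, in each of the 9 samples.

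The level also varied with the base one step further out. With U 2 places after the C, the 61 readings had medians of 5925 ± 168 CPM in untreated cells and 5713 ± 354 CPM in vitro. With A there, the 98 readings had 4266 ± 115 and 3076 ± 296 CPM (SD, n = 3). With C there, the 199 readings had 5556 ± 384 and 4732 ± 105 CPM, and with G, the 334 readings had 4662 ± 61.9 and 3950 ± 250 CPM. Before the C, C 2 places away gave 5347 ± 60.8 and 5105 ± 51.9 CPM over 176 readings, and G gave 4659 ± 21.7 and 3616 ± 281 CPM over 292. A gave 4764 ± 18.7 and 3632 ± 182 CPM over 140, and U gave 5353 ± 684 and 4724 ± 812 CPM over 84. The untreated values of U, from 4679 to 6046 CPM, overlapped those of A, so these were not resolved.

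The largest class of 5 bases was GGCGG, with 158 readings, and its medians were 4532 ± 243, 4353 ± 90.2 and 3618 ± 305 CPM in untreated, ATP depleted and in vitro samples. The class with GGCGA, 36 readings, had the lowest medians of those with at least 20 readings, at 3888 ± 71.3, 3166 ± 302 and 2195 ± 220 CPM. The highest untreated values in such classes were those of TGCGC with 21 readings, at 6114 ± 363 CPM, and of CGCGC with 65 readings, at 6032 ± 343 CPM. For CGCGG, with 68 readings, the in vitro median of 5468 ± 369 CPM did not overlap the untreated one of 4954 ± 72.7 CPM and lay above it, whereas for AGCGG, with 67 readings, the in vitro median of 3252 ± 438 CPM lay below the untreated one of 4784 ± 179 CPM.

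Some readings stood in runs of alternating G and C, and others in repeats of a G, a G and a C. The 96 readings with another such C 2 bases away had medians of 5745 ± 445, 5366 ± 502 and 5320 ± 314 CPM (SD, n = 3). The 141 readings with another 3 bases away and none at 2 had 4872 ± 300, 4310 ± 156 and 3610 ± 339 CPM. The 465 with neither had 4861 ± 152, 4706 ± 53.6 and 4125 ± 200 CPM. Untreated samples of the first set, from 5452 CPM up, lay above those of the other sets.

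Along the leader, the relative level was lowest near the transcript start and far from it. At positions 1 to 200 the 177 readings had an untreated median of 4715 ± 164 CPM, which was −0.47 ± 0.070 on the log2 scale against C between A or U. At 201 to 500 the 318 readings had 5316 ± 159 CPM and −0.25 ± 0.032, and beyond 500 the 207 readings had 4502 ± 182 CPM and −0.48 ± 0.088. In vitro the values were −0.67 ± 0.090, −0.39 ± 0.060 and −0.50 ± 0.071.

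Single leaders departed from the class median in both directions. Brd2 held 52 readings with untreated medians from 4358 to 4987 CPM, and its 43 readings of C between A or U had 6421 CPM. Tle4 held 32 with a mean median of 3021 ± 282 CPM, and its in vitro value was 1109 ± 472 CPM, without overlap, though 1 of its libraries had only 484 counts. Eed, a core subunit of the Polycomb repressive complex PRC2, held 33 with 5181 ± 148 CPM in untreated cells, 4950 ± 258 CPM after ATP depletion and 2691 ± 748 CPM in vitro. Its smallest library had 478 counts.

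In Ppm1b, a metal-dependent protein phosphatase, the 36 readings had 6481 ± 508 CPM untreated and the 9 of the comparison class had 6291 CPM. Eif4g3, a scaffold of the cap-binding complex, was also high, with 6281 ± 263 CPM over 18 readings against 6443 CPM. Slc22a17, a lipocalin receptor, was low, with 2864 ± 453 CPM over 16 readings against 6672 CPM. The smallest libraries of Ppm1b, Eif4g3 and Slc22a17 held only 1613, 1912 and 1787 counts. Ctcf, the zinc finger protein that anchors chromatin loops, had 4456 ± 303 CPM over 27 readings and 3209 ± 195 CPM in vitro, without overlap. Medians were thus lower in vitro in several leaders, but in Hipk3, a nuclear kinase, they were 4904 ± 199 CPM untreated and 5330 ± 596 CPM in vitro over 20 readings, with overlap.

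Single positions of the class spread widely. Untreated means over the 702 readings ran from 191 to 88822 CPM, with quartiles at 3187 and 7983 CPM. In vitro they ran from 15.1 to 87552 CPM, with quartiles at 2026 and 8843 CPM. The ratio of the upper to the lower quartile within a sample was 2.66 ± 0.23 in untreated cells, 2.72 ± 0.27 after ATP depletion and 5.59 ± 0.71 in vitro (SD, n = 3). For C between A or U it was 2.27 ± 0.10, 2.37 ± 0.073 and 3.43 ± 0.47. The in vitro ratios of C between G, from 4.78 to 6.00, lay above every other value of both classes. They overlapped those of C with G only before, 4.98 ± 0.62 in vitro, and of all C, 4.87 ± 0.57. In vitro samples had fewer counts, and in amplicons whose smallest library held 20000 counts or more the ratio was 4.70 ± 0.27 against 2.86 ± 0.16 in vitro, and 2.64 ± 0.21 against 2.11 ± 0.010 in untreated cells.

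Against C between A or U, the wider spread showed at both ends. In untreated cells 11.1% of the readings lay among the lowest 10% of all A and C, and 8.69% among the highest 10%. In vitro the shares were 15.4% at the low end and 10.5% at the high end. The shares of C between A or U were 7.72% and 7.84% for untreated samples. In vitro they became 8.88% at the low end and 6.04% at the high end. Of all C, 15.6% lay at the low end in untreated samples and 16.1% in vitro.

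**Figure D3:**
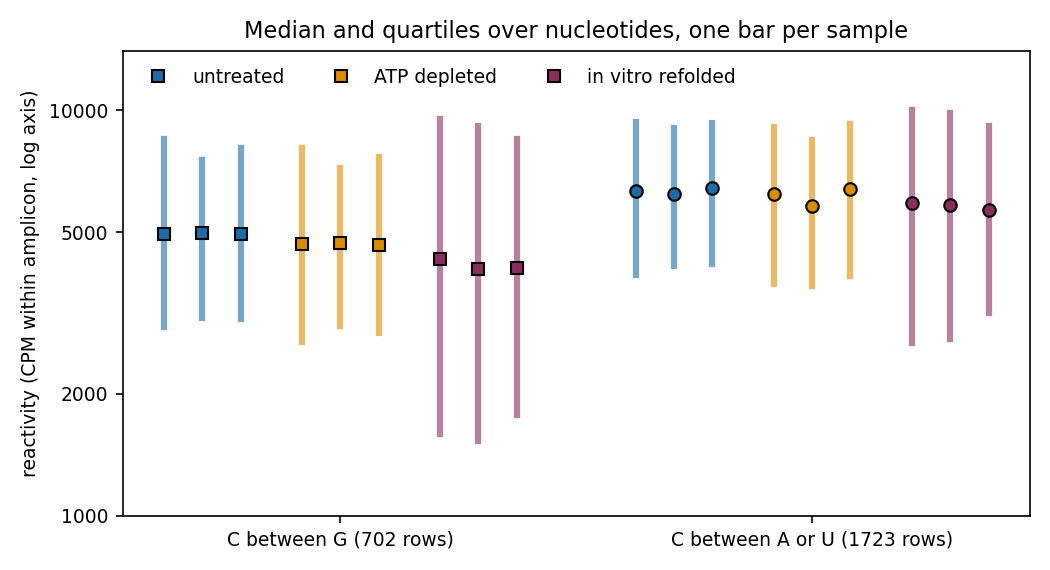
Median and quartiles over nucleotides (reactivity in CPM within amplicon, log axis) of C between G and of C between A or U, with 1 bar per sample. The in vitro bars of C between G span a quartile ratio of 5.59 on average, against 2.66 in untreated samples.

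In amplicons whose smallest library held 5000 counts or more, the 5 most reactive positions were in 3 leaders. In a shallower amplicon, with a library of 1976 counts, Kdm2a position 384 had a mean over 9 samples of 43707 CPM. At Brd2 position 666 the untreated values were 69799, 109408 and 87261 CPM, those after ATP depletion 83852, 111124 and 85269 CPM, and those in vitro 69745, 75159 and 61044 CPM. Untreated samples overlapped both other groups, whereas the in vitro samples all lay below the ATP depleted ones. Against ATP depleted cells the adjusted p from limma was 0.162. At Brd2 position 1650 the values were 56634, 49602 and 47306 CPM, then 62177, 55097 and 56591 CPM, and 83850, 79121 and 76127 CPM in vitro, which lay above both other groups. The overlapping amplicon gave 28365 ± 2825, 30134 ± 3270 and 42303 ± 721 CPM (SD, n = 3) for the same C. The level thus differed between the amplicons and the order of the groups did not.

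Eif5 encodes the factor that triggers GTP hydrolysis by eIF2 at the start codon. Its position 295 had 42520, 39561 and 43410 CPM in untreated cells, 42612, 44356 and 44181 CPM after ATP depletion, and 91249, 87477 and 83931 CPM in vitro. The in vitro samples stood clear of the others at 2.09 times the untreated mean, and the log2 change was 1.01 ± 0.087 (SE), with an adjusted p of 0.000633 from limma. Cnot3 position 315 had means of 32774 ± 4785, 34207 ± 8203 and 41061 ± 5759 CPM (SD, n = 3), with overlap. Its overlapping amplicon read 31306 ± 5048, 30803 ± 10873 and 31217 ± 3594 CPM, with no rise in vitro. Brd2 position 1284 had 31208 ± 1307, 31686 ± 1298 and 39558 ± 1935 CPM, where the in vitro samples lay above the rest.

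The least reactive were a pair of neighbouring positions in Rbm10, a regulator of splicing. At position 563 the values were 246, 172 and 154 CPM in untreated cells, 214, 186 and 77.4 CPM after ATP depletion, and 23.4, 14.0 and 7.89 CPM in vitro. The in vitro values rest on 1, 0 and 0 counts, so no fold is given. At position 555 the means were 307 ± 92.1, 141 ± 57.0 and 25.6 ± 12.6 CPM. Both levels are below the median of G in the same samples.

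Acvr2a, an activin receptor, had 1253 ± 394, 596 ± 122 and 601 ± 322 CPM at position 340, and the lowest untreated value, 850 CPM, was just above the highest in vitro one, 831 CPM. Rnf10 position 155 had 1208 ± 387, 662 ± 191 and 539 ± 317 CPM, but its other amplicon, with a library of 2484 counts, read 6467 ± 2652 CPM untreated. That level is therefore uncertain.

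Of the 702 readings, 147 (20.9%) differed between refolded RNA and untreated cells by limma at an adjusted p of 0.05, where 16.3% of all 16178 A and C rows tested did. Higher in vitro were 60 (8.55%), against 8.08% of all rows, and lower were 87 (12.4%), against 8.18%. C between A or U had 327 of 1721 called (19%) and all C 17.9%, so the share lay near that of other C. All A had 14.0%. Called lower were 11.2% of all C and 11.6% of C between A or U, against 4.05% of all A. Called higher were 6.70%, 7.44% and 9.96% of these classes. The share of readings called lower thus also lay near that of other C. The median log2 change was −0.065 over the readings, −0.072 over C between A or U and 0.0047 over all rows. The split of directions depended on scaling: with each amplicon divided by its mean over A and C, 42 were higher and 101 lower, which moved the higher share from 40.8% to 29.4%. Among the 238 readings whose mean over all 9 samples reached the median of A and C, 49 were higher and 11 lower. That mean includes the in vitro samples, so the filter itself favours rises in vitro. No dependence on level was therefore read from this split. With the 6 samples compared alone in the fit, 76 were called; without untreated replicate 2, 73; without untreated replicate 3, 77.

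**Figure D4:**
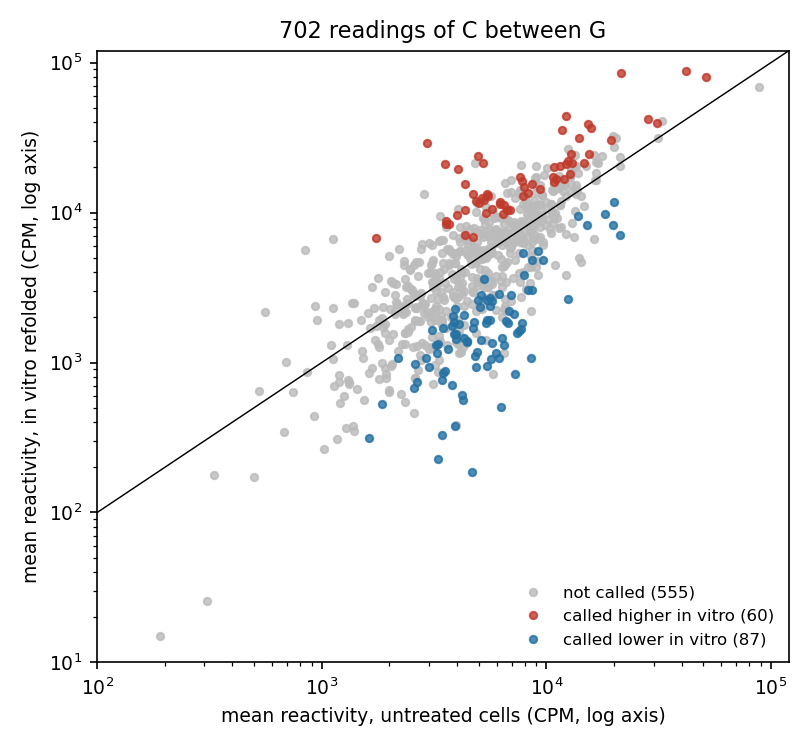
Mean reactivity of each of the 702 readings in untreated cells (horizontal axis, CPM, log axis) and in refolded RNA (vertical axis, CPM, log axis), each over 3 samples. Marked points are the 60 readings called higher and the 87 called lower in vitro by limma, and the cloud is wider along the vertical axis.

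Among the rises, Cnot3 was the largest. It encodes a subunit of the CCR4-NOT complex, which shortens poly(A) tails. At position 282 untreated values were 4105, 2865 and 3597 CPM, values after ATP depletion 2080, 3053 and 4193 CPM, and in vitro values 23780, 22948 and 16865 CPM. The in vitro samples lay far above both cell groups, which overlapped each other. The in vitro mean was 6.02 times the untreated mean, and the log2 change was 1.85 ± 0.17 (SE) with an adjusted p of 0.000653. The overlapping amplicon read 4059 ± 707, 4024 ± 395 and 19474 ± 2726 CPM (SD, n = 3), a log2 change of 1.64 with an adjusted p of 0.000338.

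Eif5 position 209 rose from 11872, 11755 and 12964 CPM in untreated cells to 46657, 42003 and 44475 CPM in vitro. After ATP depletion it had 13679, 12916 and 14483 CPM. The cell groups stayed near each other and the refolded samples stood 3.64 times higher than untreated, with a log2 change of 1.63 ± 0.091 (SE) and an adjusted p of 0.000186. Over the 11 readings of Eif5, 3 were called higher in vitro and 3 lower, and the median was 4970 ± 235 CPM untreated and 3057 ± 163 CPM in vitro (SD, n = 3), without overlap.

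Ube4b, a ubiquitin chain elongation factor, had 3637, 4979 and 4446 CPM at position 540 in untreated cells, 4834, 5820 and 4593 CPM after ATP depletion, and 15649, 15132 and 15997 CPM in vitro. The in vitro values were close together and 3.58 times the untreated mean (log2 change 1.32 ± 0.11, SE, adjusted p 0.000469). In Ptp4a1, a prenylated phosphatase, position 28 had 2007, 1996 and 1235 CPM untreated, 1482, 2119 and 2255 CPM after ATP depletion, and 7122, 5433 and 7894 CPM in vitro. All in vitro samples were above all cell samples (log2 change 1.02 ± 0.13, SE, adjusted p 0.00248).

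Sertad2, a transcription coregulator, was less even. Its position 73 had 4700, 5366 and 5597 CPM untreated, 1045, 4282 and 4972 CPM after ATP depletion, and 31888, 23775 and 8419 CPM in vitro. The third in vitro sample was far below the other two but still above every cell sample (log2 change 1.40 ± 0.40, SE, adjusted p 0.0484). Taok2, a kinase of the MAP kinase cascade, had 27376, 7989 and 12241 CPM untreated at position 522, 18575, 12271 and 11312 CPM after ATP depletion, and 38890, 34907 and 35667 CPM in vitro. Its first untreated replicate was high, and the adjusted p was 0.0453 for a log2 change of 1.19 ± 0.33 (SE). The overlapping amplicon gave 15264 ± 2087 CPM untreated and 38737 ± 7375 CPM in vitro (SD, n = 3), with an adjusted p of 0.00248. The calls of Sertad2 and of Taok2 in the first amplicon were lost under 14 of 20 and 11 of 21 alternative settings.

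Ctcf held a rise and a fall within a short distance. Its C at position 105 had 4103, 5036 and 5021 CPM untreated, 4437, 3729 and 4424 CPM after ATP depletion and 14071, 14017 and 12044 CPM in vitro. The C at position 145 had 6708, 6018 and 5257 CPM untreated, 4584, 4643 and 4375 CPM after ATP depletion and 857, 1231 and 1402 CPM in vitro. The first rose by 1.07 ± 0.10 and the second changed by −1.08 ± 0.099 on the log2 scale (SE, adjusted p 0.000799 and 0.000727). Each was read in a second amplicon, with log2 changes of 0.85 and −0.76 and adjusted p of 0.00592 and 0.00394.

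**Figure D5:**
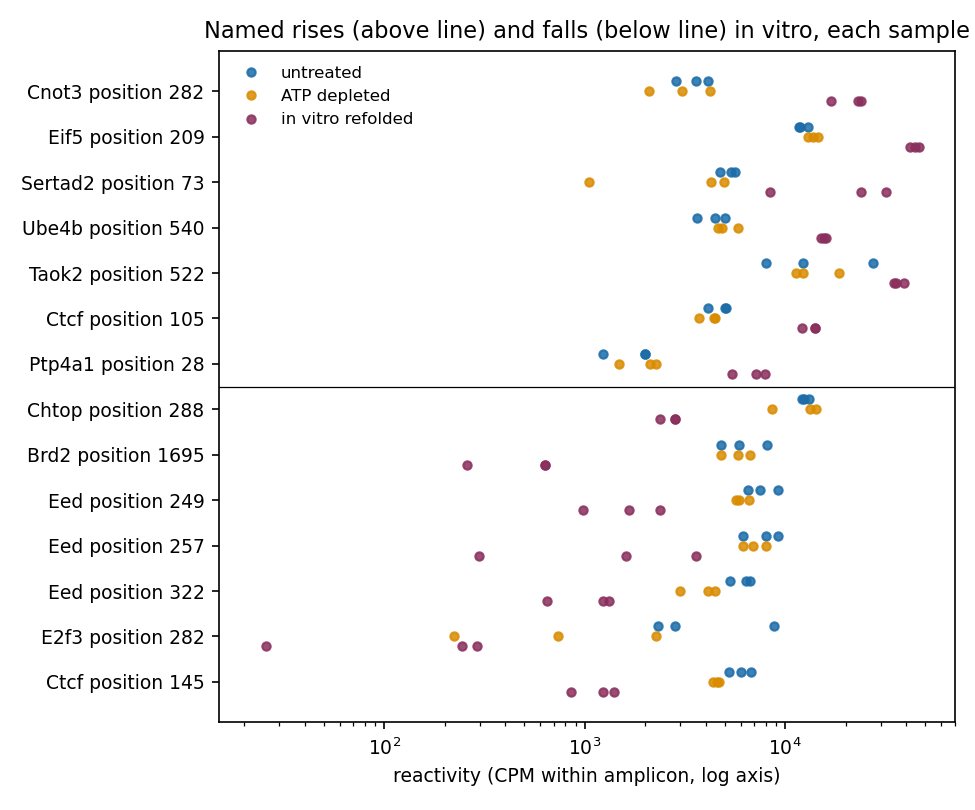
Reactivity (CPM within amplicon, log axis) of 7 of the 8 largest rises (upper rows) and 7 of the 8 largest falls (lower rows) in vitro, with 1 point per sample and the 3 groups set apart by colour and height within a row. The in vitro points lie outside the range of the untreated points at each position, which the choice of positions required. The in vitro points run from 46657 CPM at Eif5 position 209 to 25.8 CPM at E2f3 position 282.

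The largest fall on the log2 scale with the added constant was at position 288 of Chtop, a protein of the mRNA export machinery. Its values were 12394, 12070 and 13105 CPM in untreated cells, 8558, 13218 and 14242 CPM after ATP depletion, and 2379, 2823 and 2813 CPM in vitro. The refolded samples were close together and at 0.213 of the untreated mean, a log2 change of −1.42 ± 0.15 (SE) with an adjusted p of 0.00117. Because a constant was added before the logarithm, such a change understates the ratio where the level is low, and the ranking turned with a smaller constant. At 0.1 times the median the changes were −1.99 for Chtop, −2.58 for Brd2 position 1695 and −2.49 for E2f3 position 282.

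Brd2 lost reactivity over a GGC repeat near its position 1695. There the untreated values were 5884, 8119 and 4786 CPM, those after ATP depletion 6672, 5801 and 4782 CPM, and those in vitro 257, 635 and 632 CPM, from 9, 8 and 22 counts. The in vitro mean was 0.0811 of the untreated mean (log2 change −1.34 ± 0.15, SE, adjusted p 0.00139). Position 1692, one repeat earlier, had 19892 ± 1779, 24634 ± 8330 and 8319 ± 1471 CPM (SD, n = 3), with a log2 change of −1.01 and an adjusted p of 0.0144, and position 1698, one repeat later, changed by −1.06 with an adjusted p of 0.00135. Position 1650 of the same leader, given above, rose in vitro.

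In Eed 6 readings were called lower in vitro and 1, at position 251, higher, with means of 10766 CPM untreated and 20258 CPM in vitro. Of the lower ones, 3 positions were among the largest falls. Position 249 had 9209, 7474 and 6541 CPM untreated, 5656, 6558 and 5875 CPM after ATP depletion and 980, 1664 and 2358 CPM in vitro. Position 257 had 6158, 9198 and 7994 CPM, then 7966, 6148 and 6933 CPM, and 298, 3590 and 1606 CPM in vitro. Position 322 had 5295, 6704 and 6389 CPM, then 2969, 4117 and 4473 CPM, and 1236, 1313 and 649 CPM in vitro. In each case every in vitro sample was below every cell sample. The in vitro values rest on few counts: 11, 9 and 34 at position 249, 3, 20 and 23 at 257, and 14, 7 and 9 at 322. The log2 changes were −1.17 ± 0.14, −1.17 ± 0.23 and −1.13 ± 0.12 (SE), with adjusted p of 0.00181, 0.0126 and 0.00139. The second amplicon over positions 249 and 257, with a library of 478 counts, gave log2 changes of −1.0 (adjusted p 0.133) and −0.68 (adjusted p 0.0451).

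E2f3, a transcription factor of the cell cycle, had 8831, 2311 and 2824 CPM at position 282 in untreated cells, 222, 735 and 2263 CPM after ATP depletion, and 25.8, 292 and 243 CPM in vitro, from 0, 2 and 4 counts. The untreated and in vitro samples did not overlap, but the untreated spread was wide (log2 change −1.12 ± 0.30, SE, adjusted p 0.0364). This call was lost under 8 of 20 alternative settings.

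No reading was called between ATP depleted and untreated cells: 0 of 702 passed by limma, and 0 of all 16178 rows (0%), at an adjusted p of 0.05. An unadjusted p below 0.05 was found for 43 readings (6.13%), against 3.93% of all rows and 4.36% of C between A or U. The 2 smallest p among well covered readings were at Zc3h6, a CCCH zinc finger protein, and Smad6, an inhibitor of BMP signalling. Zc3h6 position 280, in cacctgtcgGCGgcggccggg, had 557, 2559 and 740 CPM untreated, 2950, 5098 and 4853 CPM after ATP depletion and 240, 662 and 201 CPM in vitro. ATP depleted samples were above the untreated ones without overlap, and the second amplicon read 1398 ± 367, 3860 ± 2043 and 351 ± 141 CPM (SD, n = 3). Smad6 position 919, in cggcgccccGCGgcagagctt, had 4446, 4562 and 3241 CPM untreated, 13199, 8946 and 6901 CPM after ATP depletion and 4905, 6729 and 8668 CPM in vitro. The log2 changes after ATP depletion were 0.76 and 0.80, with an adjusted p of 0.9999 each.

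Between refolded RNA and ATP depleted cells, 135 of 702 readings (19.2%) were called, where 14.9% of all rows were. Higher in vitro were 66 (9.40%), against 8.31% of all rows, and lower 69 (9.83%), against 6.56%. C between A or U had 290 of 1721 (16.9%), with 7.50% higher and 9.4% lower. Of all C, 7.02% were higher and 8.97% lower, and of all A 10.1% and 3.26%. The share of readings called lower thus lay near that of other C. Dividing each amplicon by its mean gave 43 higher and 84 lower, a higher share of 33.9% in place of 48.9%. Among readings whose mean over all 9 samples reached the median of A and C, 52 were higher and 9 lower, under a filter that itself favours rises in vitro. Leaving out ATP depleted replicate 1, 2 or 3 gave 78, 66 and 82 calls. This comparison shares its in vitro samples with the one against untreated cells.

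Among its largest rises were those at Cnot3 position 282 (log2 change 1.95 ± 0.17, SE, adjusted p 0.000597), Sertad2 position 73 (1.80 ± 0.40, 0.0214) and Eif5 position 209 (1.49 ± 0.091, 0.000155). Among its largest falls were those at Chtop position 288 (−1.35 ± 0.15, adjusted p 0.00143), Brd2 position 1695 (−1.27 ± 0.15, 0.00180) and Brd2 position 1692 (−1.24 ± 0.20, 0.00701). Of these 3 rises and 3 falls, all but Brd2 position 1692 were also named against untreated cells. The call of Sertad2 was lost under 6 of 20 alternative settings. The sequence at Brd2 position 1692 is cgcagctgaGCGgcggcggtt, which overlaps that of position 1695.

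The 104 positions read in 2 amplicons give a check of single calls. For in vitro against untreated, 14 were called in both readings, and 13 of these had 1 direction. A further 24 were called in only one reading, and 21 of these had the same sign in the other. For in vitro against ATP depleted, 15 were called in both, each with 1 direction, and 19 in only one, with the same sign in the other for 16. The median difference in level between the 2 readings was 1.26-fold in untreated cells, 1.19-fold after ATP depletion and 1.38-fold in vitro.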

How the data were processed

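DMS mutational profiling of multiplexed amplicons was measured in 9 samples of E14TG2a cells. The submitters' processing notes name bcl2fastq, Bowtie2 and limma, and give no version or role. The mutation counter and the genome build were not given in the sources used here. The deposited log2 values were tested on the file. They equal log2 of the count plus 0.5, per 1000000 of a library size for each amplicon and sample. That size did not always equal the summed counts. Whole counts came back for 100% of values (tolerance 0.0001) in 1449 of 1449 libraries. Since the deposited unit is log2, no count model was used. A plan written for linear reactivity was kept by turning the values back into CPM.

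Limma 3.58.1 in R 4.3.3 (lmFit and eBayes, two-sided) was run on log2(CPM + 3196.78), where the constant is 0.5 times the pooled median of A and C (6393.56), over 16178 of 16187 A and C rows and all 9 samples, with Benjamini-Hochberg adjustment and a threshold of 0.05. Rows with 0 counts in all 9 samples were left out. All 702 readings were tested. The script was tested on simulated data. Class medians are described without tests. The labels give no batch. Replicate numbers were not used to pair samples: deviations of single rows in same-numbered samples correlated at −0.018 to 0.10. Some class medians did keep one order of replicates in both cell groups. All U had 3963, 4325 and 3404 CPM in untreated replicates 1, 2 and 3, and 4224, 4891 and 3696 CPM after ATP depletion. All A had 8614, 8152 and 9001 CPM, and 8553, 8024 and 8767 CPM. The median of C between G did not keep one order, but that of C between A or U did. The log2 level of C between G against that class also kept one order. It was −0.35, −0.32 and −0.37 in untreated replicates 1, 2 and 3, and −0.41, −0.30 and −0.46 after ATP depletion. So did the quartile ratio of C between G, with 2.903, 2.442 and 2.637 untreated, and 2.995, 2.445 and 2.716 after ATP depletion. Whether same-numbered samples share a batch was not tested.

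The members and lists were chosen with earlier results of these data known. Single positions were named from amplicons whose smallest library held 5000 counts or more: the 8 largest rises and 8 largest falls called in vitro against untreated with no overlap between groups, the 4 and 4 against ATP depleted, the 2 smallest p for ATP depletion, and the 5 highest and 5 lowest levels. The amplicons, leaders and 5-base classes given as examples were chosen after their values were seen. Results of 1 transcript that the rule picked are not reported here. Transcript names came from RefSeq (GRCm38.p6) for 68 of 69 transcripts, and sequences from the rows of the table itself. Alternatives were other pseudocounts, filters, scalings, ends, depth, samples, eBayes options and each sample left out. Ranges of GC content and the depth steps for the spread were chosen after seeing the data.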

Additional observations from a re-analysis of the deposited data

How the results depend on the processing

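The call counts depended on filters and samples. For in vitro against untreated, 147 calls became 60 (49 higher, 11 lower) among nucleotides whose mean reactivity reached the median and 76 with only the 6 samples compared, and 73 to 133 with 1 sample left out, lowest without untreated replicate 2. For in vitro against ATP depleted, 135 calls became 61 (52 higher, 9 lower) under the same filter and 66 to 130 with 1 sample left out, lowest without ATP depleted replicate 2. For ATP depleted against untreated the count was 0 under every alternative. With the replicate number as a block, the counts were 121, 0 and 112. No paired reading was made, since the labels do not say what same-numbered samples share. Of 20 named results that were called, 15 kept their call under every alternative run on them, and none reversed. The filter and the smaller fits test fewer rows or samples. The mean used by the filter includes the in vitro samples, so its split of directions is partly set by the filter. Other causes were not tested.

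The log2 level against C between A or U stayed negative in untreated and ATP depleted cells. In untreated cells it was −0.14 with means, −0.54 within amplicons, −0.32 at 5000 counts or more, −0.42 with each amplicon divided by its mean, −0.69, −0.29 and −0.30 in the 3 ranges of GC around the C, −0.45 in amplicons at 60% GC or more, and −0.36 to −0.34 with 1 sample left out. After ATP depletion it was −0.099, −0.59, −0.47 with each amplicon divided by its mean, −0.82, −0.29 and −0.29 by GC around the C, −0.28 and −0.50 by amplicon GC, and −0.43 to −0.36 with 1 sample left out. In vitro it reversed with means, to 0.0051, and was −0.59 within amplicons, −0.55 without 25 nucleotides at each end, −0.30 at 5000 counts or more, −0.54 with amplicons divided by their mean, −0.65 and −0.43 in the lower GC ranges around the C, −0.081 and −0.56 by amplicon GC, and −0.50 to −0.47 with 1 sample left out.

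The change of that level between groups had no stable direction. In vitro against untreated it was 0.14 with means, −0.044 within amplicons, −0.19 without the ends, 0.019 at 5000 counts or more, 0.038 and −0.21 in the lowest and highest GC ranges around the C, 0.25 below 60% amplicon GC, and −0.15 to −0.12 with 1 sample left out. ATP depleted against untreated it was 0.036 with means, −0.13, 0.0017 and 0.011 by GC around the C, 0.055 below 60% amplicon GC, and −0.082 to −0.0046 with 1 sample left out. In vitro against ATP depleted it was 0.10 with means, 0.0015 within amplicons, 0.024 at 5000 counts or more, 0.17 and −0.22 in the lowest and highest GC ranges, 0.20 below 60% amplicon GC, and −0.13 to −0.052 with 1 sample left out. The causes were not tested. Depth limits what low readings in vitro can show.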
